A study of Arabidopsis thaliana with 24 samples.

Results

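The 47 genes described here encode the nuclear part of the photosynthetic light reactions and the small subunit of Rubisco in Arabidopsis thaliana. They were taken by gene identifier from both deposited expression tables, which list 32844 genes for the WS and sku5 roots and 33469 for the Col-0 roots. There are 6 LHCA genes for the antenna of photosystem I, 14 LHCB genes for the antenna of photosystem II, 12 PSA genes for photosystem I subunits, 8 PSB genes for photosystem II subunits, 3 genes for electron carriers (PETC, PETE1 and DRT112, the last a second plastocyanin gene) and 4 RBCS genes. The rule that picks them is a list of identifiers and holds no expression threshold.

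Photosystems and their antennae sit in the thylakoid membrane of chloroplasts, where pigment-binding LHC proteins pass light energy to reaction centres. Most subunits are encoded in the nucleus and imported, so their transcripts are normally abundant in leaves and low in roots. Roots hold mostly non-green plastids, yet light that reaches a root can bring these genes on through factors such as HY5 and the GLK proteins, and shoot-derived auxin is known to hold root greening back.

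Seedlings of 3 lines were flown on suborbital vehicles that give a few minutes of microgravity between phases of raised g-force, and RNA of whole roots was sequenced. Wild-type Col-0 and wild-type WS seedlings, 10 days old, flew on Virgin Galactic SpaceShipTwo (VG), and wild-type WS and sku5 seedlings, 11 days old, flew on Blue Origin New Shepard (BO). The sku5 line carries a mutant allele of SKU5, a cell-surface protein of directional root growth, in the WS background. Each of the 8 groups (flown and ground control for each line and vehicle) has 3 libraries, 24 in all. All seedlings grew on sucrose medium at 0.5% under light for 24 h a day at about 80 µmol m-2 s-1 until transport. At the launch sites, VG plates stood at ambient conditions under an LED bank and BO plates in a herb cultivator. Black-out cloth covered the flight plates. BO flight seedlings were fixed 33 min after landing, and BO ground seedlings were harvested 1 h after the flown ones. The 3 libraries of a group share 1 fixation tube, so p-values measure only the spread between these samples, which may be technical.

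The 2 campaigns differ in vehicle, year, site, seedling age and pre-flight conditions at once, and these cannot be told apart in any difference between BO and VG. Values are FPKM, read fragments scaled by transcript length and by mapped total. Read totals are unknown, and 18176 to 18877 genes per library were at 1 FPKM or more. SKU5 itself was at 3.17 to 9.85 FPKM in the 6 sku5 libraries and at 27.6 to 94.18 FPKM in the 12 WS libraries, without overlap. All 12 root-defining genes on a marker list were at 1 FPKM or more in every library, and their sums ran from 316 to 641 FPKM. Of 11 shoot-defining genes outside photosynthesis (leaf polarity, stomatal and trichome genes), 7 stayed under 1 FPKM in all 24 libraries, none reached 1 FPKM in all of them, and their sums ran from 0 to 6.43 FPKM. In WS, the shoot-gene sums averaged 0.510 FPKM (VG ground), 1.76 FPKM (VG flown), 1.21 FPKM (BO ground) and 1.38 FPKM (BO flown). The libraries WS VG flown replicate 2, sku5 BO ground replicate 3 and sku5 BO flown replicate 3 stood apart from their groups on the third principal component, and counts are given with and without them. In whole roots, fewer cells of a type and less RNA per cell cannot be told apart.

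Averaged over both campaigns, the genes were expressed at moderate levels. Their median mean level over the 18 WS and sku5 libraries was 17.6 FPKM, against 12.9 FPKM over all tested genes, and 36 of 47 were at 1 FPKM or more in all 18 libraries. Of these libraries 12 are from BO, where the genes summed to 1259 to 1992 FPKM. In the 6 WS VG libraries they summed to 360 to 730 FPKM. The means in this paragraph and the next therefore lie nearer the BO levels, and most genes were lower at VG. The most abundant were CAB1, an LHCB1 antenna gene, at a mean of 160 FPKM, and RBCS-1A, the main Rubisco small subunit gene, at 156 FPKM. A further 30 genes lay between 10 and 100 FPKM and 13 between 1 and 10 FPKM. LHCA6, a minor photosystem I antenna gene, stayed under 1 FPKM in every library and was listed at 0 in 19 of 24. It was therefore not tested, and the other 46 passed the filter of 1 FPKM in at least 3 libraries in WS and sku5. In Col-0, 43 passed.

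Within each class the levels were uneven. Among photosystem I antenna genes, LHCA2 had the highest mean over the 18 libraries, 23.7 FPKM. Among photosystem II antenna genes the range ran from CAB1 down to LHCB2.3 at 0.466 FPKM. PSAF, the plastocyanin-docking subunit of photosystem I, led its class at 45.9 FPKM, and PSAD2, a copy of the ferredoxin-docking subunit, was lowest at 4.83 FPKM. In photosystem II, PSBR was highest at 86.1 FPKM and PSBQ2, a copy of an oxygen-evolving complex protein, lowest at 9.84 FPKM. PETC, the Rieske protein of the cytochrome b6f complex, was at 35.7 FPKM and the plastocyanin gene PETE1 at 2.64 FPKM. RBCS-2B had the lowest Rubisco level, 4.85 FPKM.

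**Figure D1:**
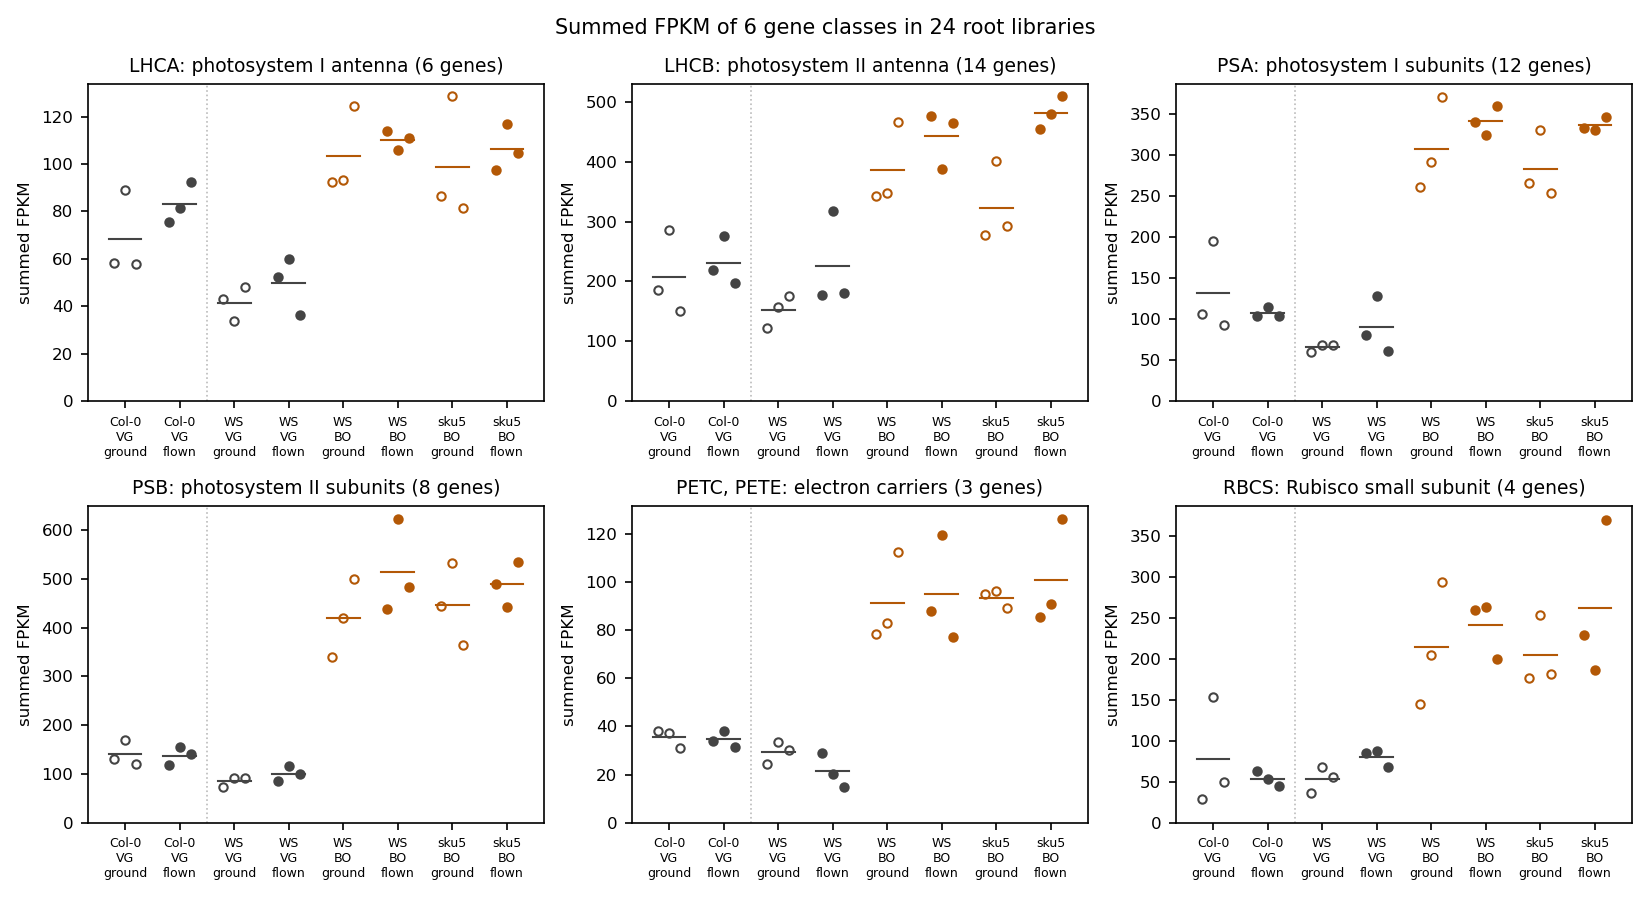
Summed FPKM per library (vertical axis) of the 6 gene classes in 8 groups (horizontal axis; VG, Virgin Galactic; BO, Blue Origin; open circles ground, filled circles flown, lines group means, n = 3 each). The 12 BO libraries lie above the 6 WS VG libraries in every class except the photosystem II antenna, where VG reaches 318 FPKM and BO starts at 277 FPKM; the dotted line parts the separately normalised Col-0 table.

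Summed over all 47 genes, the level was 360, 452 and 469 FPKM in the 3 WS VG ground libraries and 509, 730 and 461 FPKM in the 3 WS VG flown libraries. The 12 BO libraries ran from 1259 to 1992 FPKM, so they did not overlap with the WS VG libraries. The 6 Col-0 libraries, set beside these without a test because their table was normalised separately, ran from 502 to 932 FPKM. As a share of all FPKM, the genes made up a mean of 0.0401% in WS VG ground roots and 0.137% in WS BO ground roots.

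The ratio of BO to VG sums ran from 1.96 to 5.13 over the classes. For WS ground roots the BO sum was 4.93 times the VG sum for photosystem II subunits and 4.69 times for photosystem I subunits. It was 3.99 times for RBCS, 3.12 times for the electron carriers, 2.54 times for the photosystem II antenna and 2.48 times for the photosystem I antenna. For flown roots the ratios were 5.13, 3.80, 3.02, 4.45, 1.96 and 2.22 in the same order of classes. The antenna classes had the lowest ratios in both. The root-marker sum had ratios of 1.07 (ground) and 1.38 (flown), but its members moved in both directions: on the ground EXPA7, a root-hair expansin, was higher at BO (log2 change 1.84, SE 0.30), as was CASP1, a Casparian strip protein (1.02, SE 0.29), while PHO1, a phosphate exporter of the stele, was lower (-0.85, SE 0.19).

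Across genes, WS ground roots at BO had 32 of the 46 tested genes higher than at VG and 1 lower (limma, Benjamini-Hochberg adjusted p under 0.05). The background over all 20127 tested genes was 16.9% higher and 15.3% lower. The median log2 change was 1.78 for these genes and 0.04 for all genes. In 38 of the 46 all 3 BO libraries lay above all 3 VG libraries, and in 1 below, where the background was 26.5% and 23.4%. In flown WS roots, 33 were higher at BO and 1 lower (background 10.1% and 10.8%), with a median log2 change of 1.41 against -0.03. Here the libraries did not overlap in 31 upwards and in 3 downwards, against 18.5% and 20.3% of all genes. The ground and flown comparisons share no libraries. The 27 genes higher in both were 84.4% of the ground list and 81.8% of the flown list, and 44 of 46 changes had the same sign (Pearson r 0.646 over 46 genes; 0.616 over all tested genes; the genes of a comparison share its libraries). Leaving out single libraries gave 30 to 33 calls in ground roots and 27 to 32 in flown roots, and with the 3 outlying libraries removed the counts were 37 higher and 1 lower, and 34 higher and 2 lower.

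**Figure D2:**
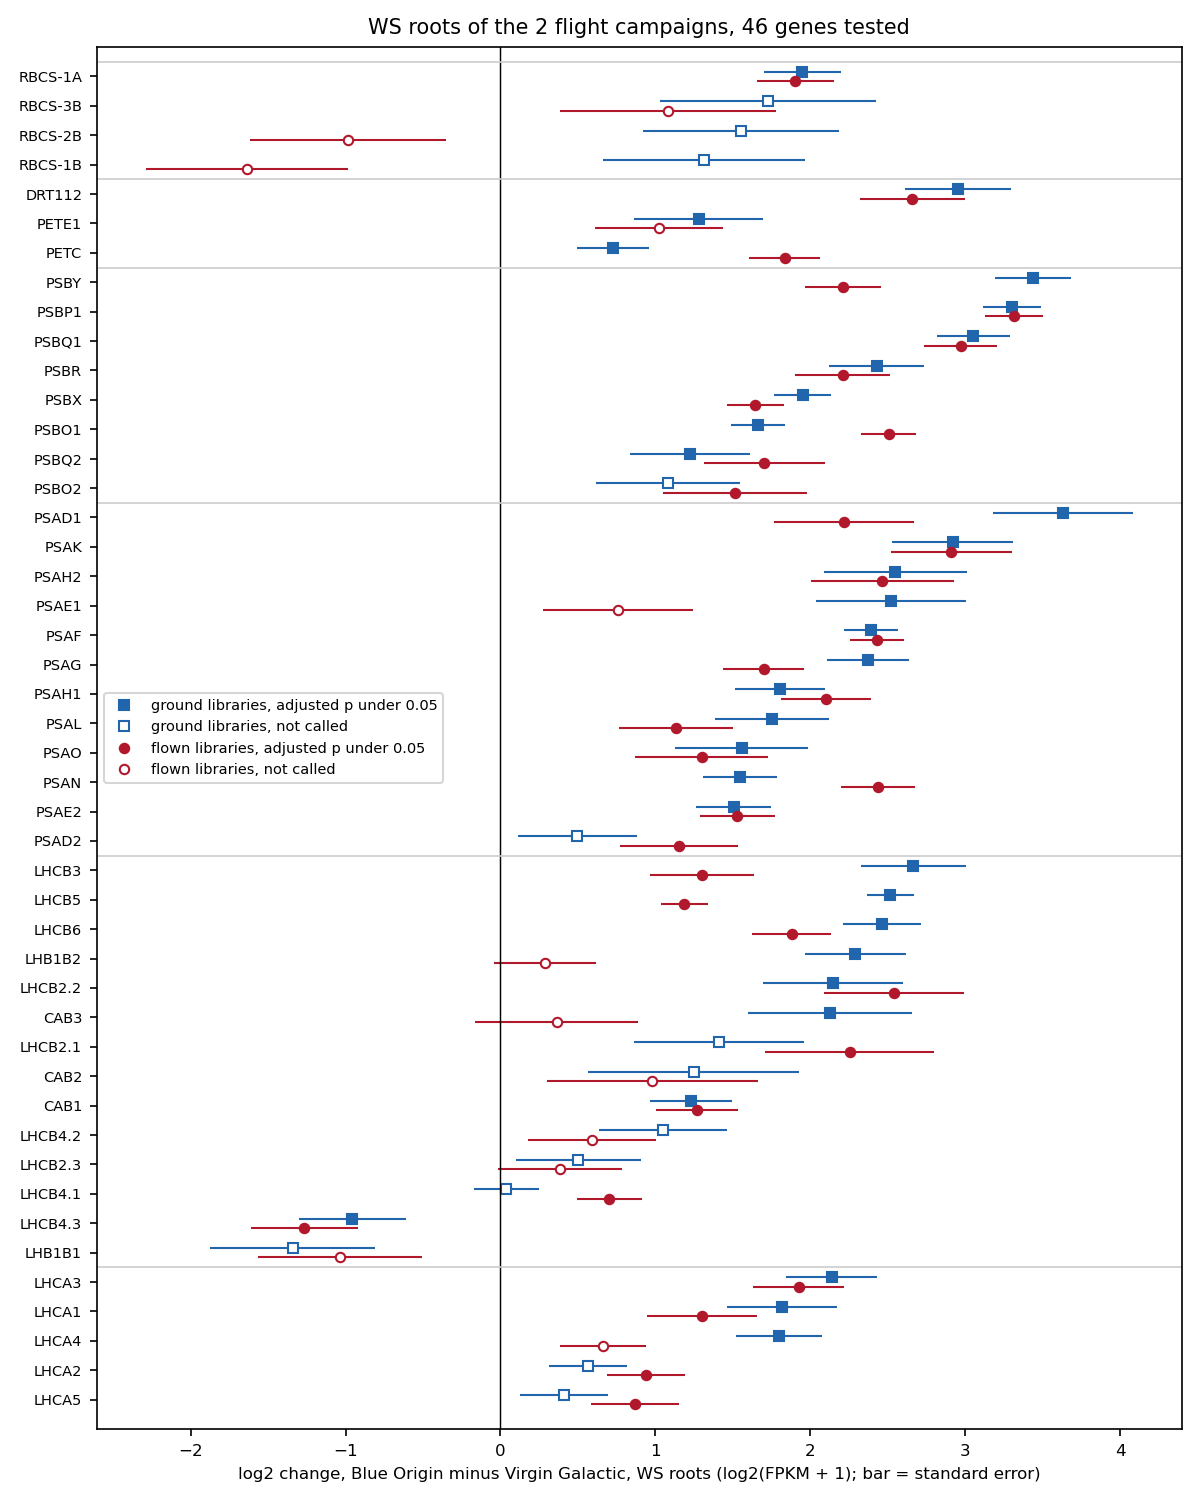
Log2 change between campaigns (horizontal axis, BO minus VG, log2(FPKM + 1), bars standard errors) of each of 46 genes in WS roots, grouped by class (squares ground, circles flown, filled where adjusted p was under 0.05). All 20 photosystem subunit genes (PSA and PSB) lie to the right of 0, whereas LHCB4.3 lies to the left in both comparisons.

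Photosystem I subunits were higher at BO in 11 of 12 genes in ground roots and again in 11 of 12 in flown roots. PSAD1 (AT4G02770), which encodes the subunit that docks ferredoxin, was at 1.63, 1.00 and 1.56 FPKM in WS VG ground libraries and at 23.09, 26.80 and 37.09 FPKM in WS BO ground libraries. The groups did not overlap, and its log2 change of 3.63 (SE 0.45, adjusted p = 1.59e-05, limma) was the largest of the 46. In flown roots PSAD1 was at 10.89, 2.65 and 0.70 FPKM at VG and at 14.27, 19.32 and 22.89 FPKM at BO (log2 change 2.22, SE 0.45, adjusted p = 0.00250, limma). VG flown replicate 1 was the high one. PSAF was at 9.89, 12.26 and 12.25 FPKM against 54.50, 64.92 and 75.03 FPKM on the ground (log2 change 2.39, SE 0.17), and PSAK, a subunit near the LHCA belt, had a log2 change of 2.92 (SE 0.39). The other subunits called in both comparisons were PSAH2 (2.55 on the ground and 2.46 flown), PSAG (2.37 and 1.70), PSAH1 (1.80 and 2.10), PSAL (1.75 and 1.13), PSAO (1.56 and 1.30), PSAN (1.54 and 2.44) and PSAE2 (1.51 and 1.53), given as log2 changes. The flown calls of PSAO and PSAL were lost in 7 and 6 of 16 alternatives, both among them without WS BO flown replicate 1 or 3 or WS VG flown replicate 1 or 3. Without WS VG flown replicate 3 the PSAO change was 0.79. PSAD2 passed in flown roots (1.15, SE 0.38), a call lost in 8 of 16 alternatives, among them leaving out WS BO flown replicate 1 or 3 or WS VG flown replicate 2 or 3. The exception on the ground was PSAD2 (log2 change 0.50, SE 0.38, adjusted p = 0.347, limma), the close copy of PSAD1. In flown roots the exception was PSAE1 (0.76, SE 0.48, adjusted p = 0.284, limma).

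Photosystem II subunits were higher in 7 of 8 genes on the ground and in all 8 in flown roots. PSBP1 (AT1G06680), a protein of the oxygen-evolving complex on the lumen side, was at 5.53, 3.97 and 5.25 FPKM in VG ground and 48.51, 56.77 and 66.92 FPKM in BO ground libraries of WS. In flown libraries it was at 7.03, 9.97 and 5.08 FPKM at VG and 74.13, 86.45 and 79.20 FPKM at BO. Neither pair of groups overlapped, and the log2 changes were 3.30 and 3.31 (SE 0.19 each, adjusted p = 6.89e-09 and 7.87e-09, limma). PSBY (AT1G67740), a small membrane subunit, was at 1.64, 1.30 and 3.36 FPKM at VG and 36.08, 27.69 and 30.74 FPKM at BO on the ground, again without overlap (log2 change 3.44, SE 0.25). PSBQ1 (3.05), PSBR (2.43), PSBX (1.95), PSBO1 (1.66) and PSBQ2 (1.22) completed the ground list by log2 change. PSBO2, a second copy of the manganese-stabilising protein, did not pass on the ground (1.08, SE 0.46, adjusted p = 0.0847, limma) and was higher in flown roots (1.51, SE 0.46), a call lost without WS BO flown replicate 2 or WS VG flown replicate 1 or 2. On the ground PSBQ2 no longer passed once BO replicate 2 or 3 or VG replicate 1 or 3 of WS was left out.

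The photosystem I antenna had 3 of 5 tested genes higher on the ground and 4 of 5 in flown roots. LHCA3 was at 5.81, 5.51 and 2.66 FPKM in VG ground and at 19.46, 19.97 and 31.22 FPKM in BO ground libraries, without overlap (log2 change 2.14, SE 0.29). LHCA1 (1.82, SE 0.35) and LHCA4 (1.80, SE 0.28) were higher on the ground as well. In flown roots LHCA3 (1.93), LHCA1 (1.30), LHCA2 (0.94) and LHCA5 (0.87) were higher by log2 change, and LHCA4 did not pass (0.66, SE 0.28, adjusted p = 0.0985, limma). The flown LHCA5 call was lost in 5 of 16 alternatives (adjusted p up to 0.176), among them leaving out WS BO flown replicate 2 or any VG flown library. The flown LHCA1 and LHCA2 calls were lost in 2 alternatives each, both without WS VG flown replicate 3, which took LHCA1 to 0.75. LHCA2 was also lost without WS BO flown replicate 1.

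The photosystem II antenna was mixed, with 7 of 14 genes higher and 1 lower in each comparison. LHCB5 (AT4G10340), a monomeric antenna protein between the core and the trimers, was at 6.41, 7.41 and 6.54 FPKM in VG ground and 46.30, 39.39 and 45.12 FPKM in BO ground libraries, without overlap (log2 change 2.52, SE 0.15, adjusted p = 9.90e-09, limma). LHCB3, a trimer subunit, and LHCB6, another monomeric antenna, had log2 changes of 2.67 (SE 0.34) and 2.46 (SE 0.25). CAB1 was at 49.63, 68.44 and 66.09 FPKM in VG ground and 135.53, 127.13 and 173.54 FPKM in BO ground libraries, also without overlap (log2 change 1.23, SE 0.27). The LHCB1 copies LHB1B2 (2.29, SE 0.33) and CAB3 (2.13, SE 0.53) and LHCB2.2 (2.15, SE 0.45) were higher on the ground. LHCB2.2 (2.54), LHCB2.1 (2.26), LHCB6 (1.88), LHCB3 (1.30), CAB1 (1.27), LHCB5 (1.19) and LHCB4.1 (0.70) were higher in flown roots. The size for the low LHCB2 genes rests on the pseudocount: in flown roots LHCB2.2 ran from 1.14 with a pseudocount of 5 to 4.78 with one of 0.1, and LHCB2.1 from 1.14 to 3.59. The 3 LHCB2 genes together summed to 0 to 3.93 FPKM in the 6 WS VG libraries and to 4.65 to 24.31 FPKM in the 12 BO libraries. LHCB2.1 and LHCB2.2 each reached 1 FPKM in 14 of the 18 libraries, so they entered the test mostly through BO libraries. LHCB2.1 and LHCB2.2 share 22.7% and 28.2% of their 50-base words with each other, and the part of read sharing was not tested. The flown LHCB4.1 call was lost in 4 of 16 alternatives (without WS BO flown replicate 1 or 3 or WS VG flown replicate 1 or 3), and that of LHCB3 without WS VG flown replicate 1. LHCB4.1, the most expressed gene for the monomeric antenna CP29, did not pass on the ground (0.04, SE 0.21, adjusted p = 0.914, limma).

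LHCB4.3 (AT2G40100), a divergent CP29 gene, went the other way. It was at 9.24, 11.73 and 21.08 FPKM in WS VG ground and at 4.50, 7.50 and 7.41 FPKM in WS BO ground libraries. In flown libraries it was at 11.07, 10.18 and 8.30 FPKM at VG and at 4.88, 4.97 and 1.57 FPKM at BO. The VG libraries lay above the BO libraries in both cases, with log2 changes of -0.96 (SE 0.35, adjusted p = 0.0432, limma) and -1.27 (SE 0.35, adjusted p = 0.0157, limma). The ground call was lost in 9 of 16 alternative settings (adjusted p up to 0.216), among them leaving out any 1 of the 6 libraries other than WS VG ground replicate 1. The flown call was lost without WS BO flown replicate 3. LHB1B1, an LHCB1 copy, had log2 changes of -1.34 (SE 0.53) and -1.04 (SE 0.53) and passed in neither comparison.

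The electron carriers were higher in 3 of 3 genes on the ground and in 2 in flown roots. DRT112 was at 4.17, 9.26 and 3.81 FPKM in VG ground and 43.73, 40.01 and 63.73 FPKM in BO ground libraries, without overlap (log2 change 2.95, SE 0.34). PETC was higher on the ground (log2 change 0.73, SE 0.23, adjusted p = 0.0235, limma) and in flown roots (1.83, SE 0.23). The PETC ground call was lost in 3 of 16 alternatives, without WS BO ground replicate 2 or 3 or WS VG ground replicate 1. PETE1 was higher on the ground (1.28, SE 0.41), where the libraries overlapped, and did not pass in flown roots (1.02, SE 0.41, adjusted p = 0.0891, limma). Its ground call was lost in 5 of 15 alternatives (adjusted p up to 0.144), among them leaving out WS BO ground replicate 2 or 3 or WS VG ground replicate 1 or 2, and its log2 change ran from 0.56 with a pseudocount of 5 to 1.98 with one of 0.1.

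In the RBCS family RBCS-1A (AT1G67090) was the only single gene that passed, and it did so in both comparisons. It was at 32.58, 61.30 and 45.35 FPKM in VG ground and 132.77, 186.39 and 221.75 FPKM in BO ground libraries, and at 58.33, 67.23 and 54.09 against 248.17, 253.85 and 183.25 FPKM in flown ones. Neither pair overlapped (log2 changes 1.95 and 1.90, SE 0.25 each). The clustered copies RBCS-1B, RBCS-2B and RBCS-3B varied between libraries of 1 group. Their sum was 12.88, 18.48 and 72.75 FPKM in WS BO ground libraries, 6.50, 6.72 and 46.48 FPKM in sku5 BO flown libraries and 9.23, 73.68 and 13.80 FPKM in Col-0 ground libraries. A single library was high in each of these groups. The sum was higher at BO in WS ground roots (log2 change 1.76, SE 0.65, adjusted p = 0.0474, limma) and did not pass in flown roots (-0.61, SE 0.65, adjusted p = 0.548, limma). RBCS-1B was at 12.48, 6.77 and 6.12 FPKM in WS VG flown and 1.65, 1.93 and 2.20 FPKM in WS BO flown libraries, and RBCS-2B at 6.23, 11.55 and 6.18 against 3.52, 2.22 and 4.80 FPKM. Both lay lower at BO without overlap, and neither passed (-1.64, SE 0.65, adjusted p = 0.0854, and -0.98, SE 0.63, adjusted p = 0.289, limma). These copies share sequence, and how reads were divided among them was not tested.

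Levels of the 46 genes varied together across libraries, with exceptions. The median Pearson r between pairs of the 46 genes over the 18 WS and sku5 libraries was 0.663, against 0.0141 between pairs of 2013 genes spaced evenly through the tested list. With group means removed the medians were 0.237 and 0.0175. The libraries share vehicle, site and treatment, so these values are descriptions. PSBP1 had the highest median r with the others, 0.857, and 25 genes exceeded 0.7. LHCB4.3 (-0.646), LHB1B1 (-0.496), RBCS-1B (0.102) and RBCS-2B (0.273) were lowest.

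The sequence upstream of 7 genes is shown because they carry the largest and the opposite differences between campaigns (PSAD1 and LHCB4.3) or the flight changes described below (CAB1, LHB1B2, PSAE2 and PSBO1), with PSAE1 as the copy of PSAE2. Each run is the 250 bases before the annotated start of the gene, 5′ to 3′ on the gene's own strand, from RefSeq's TAIR10.1 assembly. Capitals mark a G-box (CACGTG), an I-box (GATAAG) or a word bound by GLK factors (GATTCT), on either strand. The intervals are chr4:1230165-1230414 (minus strand) for PSAD1, chr2:16745378-16745627 (plus) for LHCB4.3, chr1:10477635-10477884 (plus) for CAB1, chr2:14523569-14523818 (minus) for LHB1B2, chr4:14204062-14204311 (minus) for PSAE1, chr2:8736484-8736733 (plus) for PSAE2 and chr5:26568322-26568571 (plus) for PSBO1.
PSAD1: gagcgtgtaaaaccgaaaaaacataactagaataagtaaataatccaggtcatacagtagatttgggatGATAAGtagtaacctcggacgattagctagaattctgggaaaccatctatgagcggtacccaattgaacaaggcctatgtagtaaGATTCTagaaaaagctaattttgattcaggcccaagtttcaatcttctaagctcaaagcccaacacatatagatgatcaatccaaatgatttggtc
LHCB4.3: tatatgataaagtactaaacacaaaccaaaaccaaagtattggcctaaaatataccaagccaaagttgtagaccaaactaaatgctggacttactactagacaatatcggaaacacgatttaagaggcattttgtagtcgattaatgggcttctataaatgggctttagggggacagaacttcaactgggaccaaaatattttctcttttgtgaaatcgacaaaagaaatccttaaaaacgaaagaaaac
CAB1: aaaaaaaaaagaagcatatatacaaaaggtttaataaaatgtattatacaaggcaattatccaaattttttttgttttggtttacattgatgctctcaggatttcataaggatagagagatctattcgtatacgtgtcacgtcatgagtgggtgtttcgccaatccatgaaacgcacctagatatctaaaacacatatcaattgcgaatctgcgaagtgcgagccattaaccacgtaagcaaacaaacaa
LHB1B2: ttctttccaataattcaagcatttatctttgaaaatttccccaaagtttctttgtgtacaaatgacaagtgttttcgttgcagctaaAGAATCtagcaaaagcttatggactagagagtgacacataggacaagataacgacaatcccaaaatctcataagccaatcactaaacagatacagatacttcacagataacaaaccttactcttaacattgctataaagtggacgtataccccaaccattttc
PSAE1: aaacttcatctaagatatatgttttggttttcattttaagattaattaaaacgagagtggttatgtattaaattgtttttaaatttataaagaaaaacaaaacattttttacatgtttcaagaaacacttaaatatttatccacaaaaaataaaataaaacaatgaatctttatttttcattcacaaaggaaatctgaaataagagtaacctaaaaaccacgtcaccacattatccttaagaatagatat
PSAE2: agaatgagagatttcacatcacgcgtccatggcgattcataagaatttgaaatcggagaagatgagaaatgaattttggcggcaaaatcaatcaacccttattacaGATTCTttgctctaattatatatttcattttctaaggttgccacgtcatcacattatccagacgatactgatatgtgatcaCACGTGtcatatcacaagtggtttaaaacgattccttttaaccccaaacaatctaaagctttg
PSBO1: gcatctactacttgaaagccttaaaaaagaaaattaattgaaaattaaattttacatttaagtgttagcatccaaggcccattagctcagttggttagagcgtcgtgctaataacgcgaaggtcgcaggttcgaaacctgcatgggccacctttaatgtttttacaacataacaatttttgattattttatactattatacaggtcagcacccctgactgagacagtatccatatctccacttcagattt

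In these windows PSAD1 holds an I-box 181 bases and a GLK word 96 bases before the start, and LHCB4.3 holds none of the 3 words. LHB1B2 holds a GLK word 163 bases before the start, where CAB1, another LHCB1 gene, holds none. PSAE2 holds a G-box at 63 and a GLK word at 144 bases, where PSAE1, its copy, holds none, and PSBO1 holds none. Over all 47 genes, 9 windows (19.1%) held a G-box, against 6.49% of 27443 windows in the genome. An I-box was in 12 (25.5%, against 12.3%) and the GLK word in 14 (29.8%, against 15.9%). No matches overlapped one another in the 7 printed windows. A match is a description, and a missing match says only that the letters are not in this window.

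Other genes of the chloroplast, chosen as lists with earlier results of these data known, also differed between campaigns. For all lists here, the background over all tested genes was 16.9% higher and 15.3% lower on the ground. In flown roots it was 10.1% and 10.8%. Of 17 tested Calvin cycle genes, 11 were higher and 1 lower at BO in WS ground roots, and 10 higher and 0 lower in flown roots. The lower one was the abundant CP12-1, at a mean of 342 FPKM at VG and 130 FPKM at BO. The summed level of the 17 genes was near level on the ground, at 763 FPKM at VG and 749 FPKM at BO. GAPB, a subunit of the chloroplast glyceraldehyde-3-phosphate dehydrogenase, was at 1.04, 3.26 and 1.29 FPKM at VG and 17.65, 19.09 and 26.72 FPKM at BO on the ground (log2 change 3.01, SE 0.32), without overlap. RCA, Rubisco activase, had log2 changes of 2.52 (SE 0.33) on the ground and 2.40 (SE 0.33) flown. Of 22 chlorophyll synthesis genes, 13 were higher and 1 lower on the ground, and 10 higher and 0 lower in flown roots. They include CRD1, a subunit of the cyclase of the pathway (2.25, SE 0.17 on the ground), GUN5, a subunit of magnesium chelatase (3.31, SE 0.29), and PORB, a protochlorophyllide reductase (3.05, SE 0.34). A list of 23 other thylakoid genes also holds the root-type ferredoxin and its reductases. Of these 23 genes, 18 were higher and 0 lower on the ground, and 13 higher and 3 lower in flown roots. NPQ4, the photoprotection protein PsbS, was at 0.00, 1.64 and 0.71 FPKM at VG and 33.29, 16.74 and 29.20 FPKM at BO on the ground (4.00, SE 0.41), and PSBW, a small photosystem II subunit, had a log2 change of 2.32 (SE 0.18). FD1, a ferredoxin picked after its values were seen, had one of 3.75 (SE 0.46).

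Of 15 tested regulators of these genes, 6 were higher and 1 lower at BO on the ground (40% and 6.67%; background 16.9% and 15.3%). In flown roots 4 were higher and 0 lower (26.7% and 0%; background 10.1% and 10.8%). GLK1 and GLK2, which activate photosystem genes, passed in neither comparison; GLK2 had log2 changes of 0.44 and 0.65 (SE 0.29 each). GNC, a GATA factor of greening, was called higher on the ground (0.81, SE 0.29). It was at 0.00, 0.46 and 0.00 FPKM at VG and 0.38, 1.78 and 1.05 FPKM at BO. GNC stayed under 1 FPKM in every WS VG library, so it entered the test through BO libraries. Its paralog CGA1 was called higher in flown roots (adjusted p = 0.0429, limma). CGA1 was at 1.57, 0.37 and 0.18 FPKM at VG and 0.99, 5.90 and 2.66 FPKM at BO. Both genes lay near the floor, and the libraries overlapped in both cases. BBX21, a B-box partner of the light-signalling factor HY5, was lower on the ground (-1.19, SE 0.14). HY5 itself was at 21.71, 20.29 and 20.75 FPKM at VG and 53.34, 64.33 and 66.27 FPKM at BO on the ground, without overlap (adjusted p = 5.69e-04, limma). In flown roots HY5 was at 29.61, 32.06 and 34.18 FPKM at VG and 16.11, 51.20 and 22.35 FPKM at BO, which overlapped. Root markers moved too, with 6 higher and 2 lower of 12 on the ground (50% and 16.7%). In flown roots 3 were higher and 3 lower (25% each), with the same backgrounds as for the regulators. The part of root markers in the results above was not tested.

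With flight, 4 of the genes passed in at least 1 line at BO and 0 at VG. BO ground seedlings were harvested 1 h after the flown ones. Flight and harvest time therefore cannot be told apart in this and the following BO flight changes. At BO, WS roots had 1 higher and 1 lower of 46 tested, where 5.51% of all genes were higher and 6.15% lower. The sku5 roots had 3 higher and 0 lower (background 5.05% and 5.25%). The median log2 change of the 46 genes was 0.03 in WS and -0.00 in sku5, and that of all genes was -0.08 and -0.09. Libraries of flown and ground roots did not overlap for 9 genes upwards and 9 downwards in WS (background 15.5% and 21.9%), and for 10 upwards and 3 downwards in sku5 (background 10.3% and 15.8%). With a TMM scaling factor the calls over all genes turned from 1108 higher and 1237 lower to 1366 and 1013 in WS, and from 1016 and 1056 to 1324 and 802 in sku5. The 46 genes then had 2 higher and 0 lower in WS and 6 higher and 0 lower in sku5. Without the 3 libraries that stood apart, the genes had 3 higher and 3 lower in WS, and 2 higher and 2 lower in sku5.

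PSBO1 (AT5G66570), the manganese-stabilising protein of photosystem II, rose with flight in both BO lines. It was at 65.97, 76.87 and 94.14 FPKM in WS ground and 116.84, 152.71 and 118.90 FPKM in WS flown libraries. In sku5 it was at 75.20, 88.58 and 62.53 FPKM on the ground and 135.30, 114.22 and 146.27 FPKM after flight. Neither pair overlapped, with log2 changes of 0.71 (SE 0.17, adjusted p = 0.0149, limma) in WS and 0.81 (SE 0.17, adjusted p = 0.00770, limma) in sku5. The WS call was lost without WS flown replicate 2 (adjusted p = 0.0682, limma) or without WS ground replicate 1 (0.0911), and the sku5 call was lost without the 3 libraries that stood apart (log2 change 0.60, adjusted p = 0.0628, limma). At VG, PSBO1 was at 22.38, 21.97 and 28.07 FPKM in WS ground and 18.35, 25.13 and 22.46 FPKM in WS flown libraries, which overlapped.

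CAB1 (AT1G29930) rose in sku5. It was at 90.81, 139.95 and 114.93 FPKM on the ground and at 279.61, 302.70 and 258.15 FPKM after flight, without overlap (log2 change 1.29, SE 0.27, adjusted p = 0.00564, limma), and the call held in all 15 alternatives run for it. In WS at BO it was at 135.53, 127.13 and 173.54 FPKM on the ground and 278.11, 191.56 and 271.86 FPKM after flight. These WS libraries did not overlap either, but the change of 0.75 (SE 0.27) did not pass (adjusted p = 0.0773, limma), and the difference of the flight effects (sku5 minus WS) was 0.54 (SE 0.38, adjusted p = 1, limma).

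LHB1B2 (AT2G34420), another gene of the LHCB1 family, fell in WS at BO. It was at 46.57, 58.47 and 62.03 FPKM on the ground and 25.19, 32.04 and 21.64 FPKM after flight, without overlap (log2 change -1.06, SE 0.33, adjusted p = 0.0440, limma). The call was lost without any 1 of the 6 libraries compared, with a TMM factor (adjusted p = 0.0591, limma), and in 9 of 15 alternatives in all (adjusted p up to 0.152). In sku5 it was at 42.51, 60.95 and 45.02 FPKM on the ground and 26.17, 28.87 and 45.72 FPKM after flight, where the third flown library overlapped the ground ones (log2 change -0.57, SE 0.33, adjusted p = 0.297, limma). That library is 1 of those that stood apart.

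The CAB1 to LHB1B2 ratio, picked after its values were seen, was 2.14 to 2.91 in the 6 BO ground libraries and 5.65 to 12.6 in the 6 BO flown libraries. In WS VG libraries the ratio was 3.94 to 8.98 on the ground, which overlaps the BO flown range, and 4.48 to 5.31 after flight. Col-0 had 1.65 to 2.86 on the ground and 1.05 to 2.18 after flight. Within the summed FPKM of the 5 LHCB1 genes, CAB1 made up 59.1% to 66.7% in the 6 BO ground libraries. In the 6 BO flown libraries it made up 74.6% to 89.1%, without overlap. In the 6 WS VG libraries the share was 63.0% to 74.4%. In Col-0 the share was 53.3% to 68.1% on the ground and 45.5% to 62.0% after flight, which overlapped. The summed level of the 5 genes, was higher after flight in sku5 (log2 change 0.85, SE 0.25, adjusted p = 0.0379, limma) and did not pass in WS (0.34, SE 0.25, adjusted p = 0.413, limma). Of the 50-base words in their transcripts, 17.0% of CAB1 and 17.3% of LHB1B2 occur in another gene as well. The part of read sharing in these values was not tested.

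PSAE2 (AT2G20260), 1 of 2 genes for a stromal subunit of photosystem I, rose in sku5 at BO, from 12.71, 17.60 and 16.66 FPKM on the ground to 36.44, 29.12 and 22.01 FPKM after flight (log2 change 0.84, SE 0.24, adjusted p = 0.0347, limma). Its call was lost in 6 of 16 alternatives (adjusted p between 0.0507 and 0.1498 in those), among them leaving out any 1 of the compared libraries other than sku5 flown replicate 3. In WS it was at 17.46, 18.31 and 16.91 FPKM on the ground and 33.87, 23.99 and 26.33 FPKM after flight, again without overlap, and did not pass (0.63, SE 0.24, adjusted p = 0.102, limma). PSAE1 (AT4G28750), the other copy, was at 15.46, 16.80 and 26.86 FPKM on the ground and 10.82, 12.09 and 17.25 FPKM after flight in WS (-0.51, SE 0.48, adjusted p = 0.553, limma). The PSAE2 to PSAE1 ratio was 0.630 to 1.61 in BO ground and 1.53 to 3.13 in BO flown libraries, which overlapped slightly. In WS VG libraries this ratio varied widely, at 0.394 to 10.3 on the ground and 0.585 to 2.28 after flight. Col-0 had 0.978 to 4.27 on the ground and 2.01 to 5.82 after flight.

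**Figure D3:**
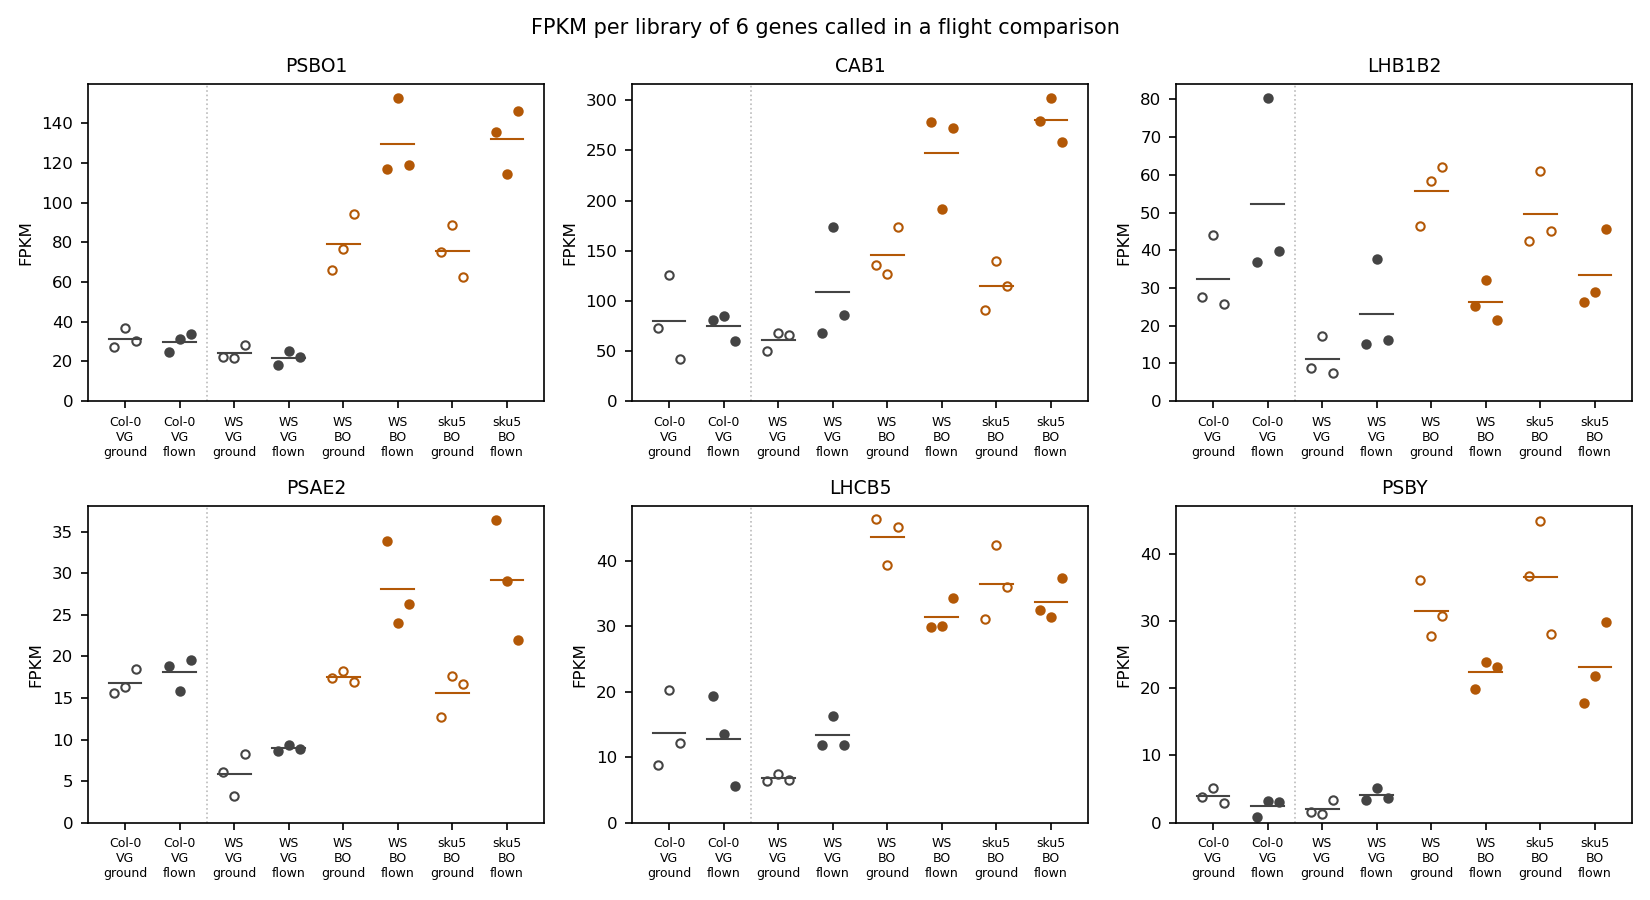
FPKM (vertical axis) in each library of 6 genes that passed in a flight comparison or in the difference between vehicles, by group (open circles ground, filled circles flown, lines means, n = 3 each; dark grey VG, brown-orange BO). PSBO1 and CAB1 are higher in all flown than in all ground BO libraries of each line, and LHCB5 is lower in flown than in ground WS BO libraries but higher in flown than in ground WS VG libraries.

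The flight changes of the 46 genes in WS and sku5 at BO, which share no libraries, had the same sign for 39 genes (Pearson r 0.746 over 46 genes; 0.777 over all tested genes). No gene was called for a difference in flight effect between the lines (limma, 0 of 46; background 0%). The estimated differences (sku5 minus WS) ran from -0.80 to 1.28. With 3 libraries per group, a missing call does not show equal effects. At an unadjusted p under 0.05 the count was also 0, against 1.57% of all genes. None of the 46 was called between sku5 and WS on the ground or after flight (limma, 0 and 0; background 0.0149% and 0.0199%). At an unadjusted p under 0.05 the counts were again 0 and 0, where 2.16% and 4.78% of all genes were.

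**Figure D4:**
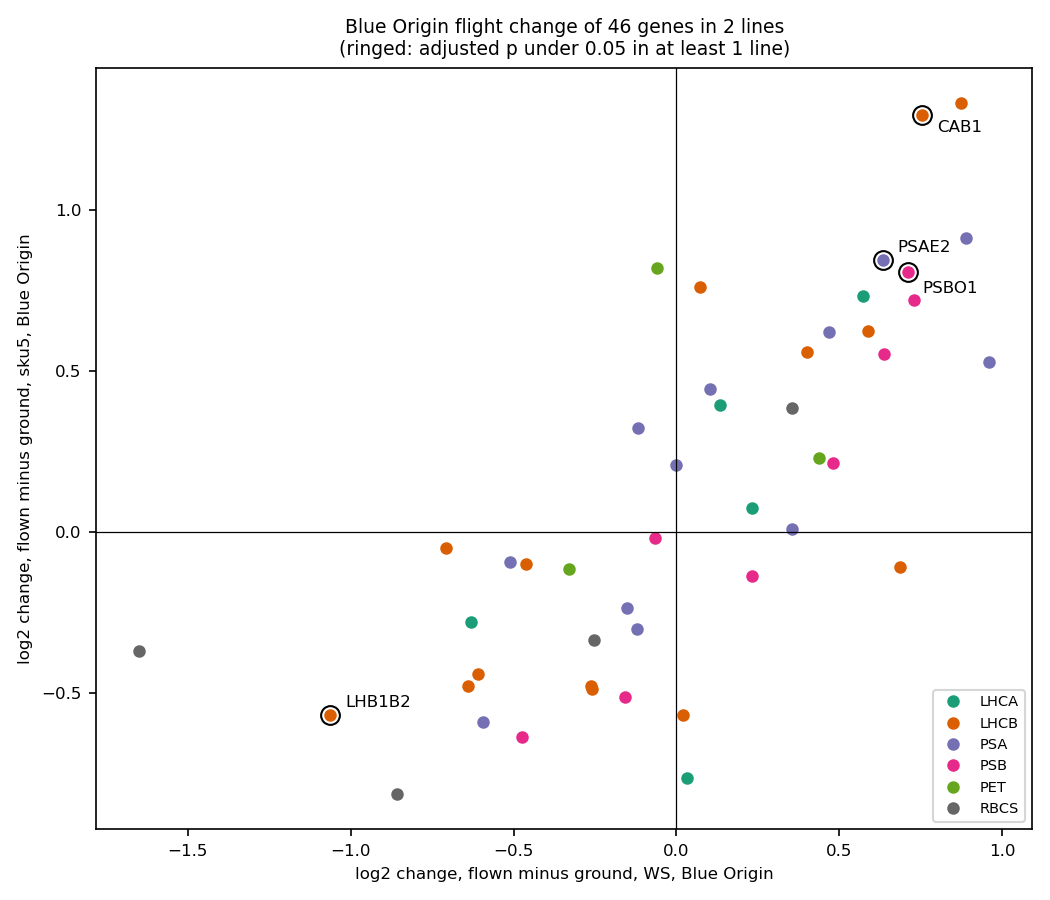
Log2 change with BO flight (flown minus ground, log2(FPKM + 1)) of each of 46 genes in WS (horizontal axis) and sku5 (vertical axis), coloured by class; rings mark genes with an adjusted p under 0.05 in at least 1 line. Of the 46 genes, 39 lie in the quadrants where both changes have the same sign, CAB1, PSAE2 and PSBO1 at the upper right and LHB1B2 at the lower left.

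At VG, 0 of 46 genes passed in WS (background 0.0298%) and 0 of 43 in Col-0 (background 0.00532%) by limma. At an unadjusted p under 0.05 there were 11 of 46 in WS, against 9.36% of all genes, and 1 of 43 in Col-0, against 4.93%. In WS, 34 of 46 changes were positive with a median log2 change of 0.33, against -0.02 for all genes, and libraries did not overlap for 5 genes upwards and 2 downwards (background 7.52% and 7.16%). The lowest adjusted p was that of LHCB5, at 6.41, 7.41 and 6.54 FPKM on the ground and 11.92, 16.23 and 11.83 FPKM after flight (log2 change 0.87, SE 0.15, adjusted p = 0.0678, limma), which did not overlap. In Col-0 the median was -0.01, with 1 gene upwards and 2 downwards without overlap (background 5.06% and 5.28%). LHCB5 in Col-0 was at 8.84, 20.24 and 12.15 FPKM on the ground and 19.41, 13.47 and 5.60 FPKM after flight, fully overlapping.

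The authors' deposited tables list 13 changed genes for Col-0 at VG, 57 for WS at VG, 923 for sku5 at BO and 865 for WS at BO. The genes described here appear in the authors' deposited table for Col-0 once, as PSAD2 (log2 fold change -8.09), and in the authors' deposited table for sku5 once, as CAB1 (log2 fold change 1.37). PSAD2 was at 0.24, 5.57 and 6.09 FPKM in Col-0 ground and at 0.00, 0.04 and 0.00 FPKM in Col-0 flown libraries, and it missed the filter for a test here. The first ground library was close to the flown ones.

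The WS flight effect differed between vehicles for 4 of 46 genes (3 more negative and 1 more positive at BO; background 3.20% and 3.63%, or 6.83% in either direction). LHB1B2 had the largest of these 4 differences, -2.003 on the log2 scale (SE 0.46, adjusted p = 0.0183, limma): at VG it was at 8.92, 17.37 and 7.36 FPKM on the ground and 15.26, 37.73 and 16.12 FPKM after flight. LHCB5 differed by -1.33 (SE 0.21, adjusted p = 0.00329, limma), with the VG values above and 46.30, 39.39 and 45.12 FPKM on the ground against 29.94, 30.00 and 34.22 FPKM after flight at BO. PSBY differed by -1.23 (SE 0.35, adjusted p = 0.0430, limma), from 36.08, 27.69 and 30.74 FPKM to 19.93, 23.89 and 23.22 FPKM at BO. PSBO1 differed by 0.84 (SE 0.25, adjusted p = 0.0498, limma). The LHCB5 call held in all 22 alternatives and the LHB1B2 call in 19 of 21, while the PSBY and PSBO1 calls were each lost in 14 of 22. The LHB1B2 call was lost without WS VG ground replicate 1 or 3. Without the 3 libraries that stood apart PSBY no longer passed (-1.08, adjusted p = 0.0598, limma).

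Several neighbouring chloroplast genes also changed with BO flight, where 5.51% of all genes were higher and 6.15% lower in WS, and 5.05% and 5.25% in sku5. Of 22 tested chlorophyll synthesis genes, 3 were higher and 0 lower in each line, and they were the same 3 (13.6% of the list). HEMA1, glutamyl-tRNA reductase at the entry of the pathway, was at 21.79, 29.85 and 26.44 FPKM in WS ground and 52.80, 62.47 and 57.57 FPKM in WS flown libraries (log2 change 1.12, SE 0.17), and at 16.17, 27.41 and 24.37 against 60.59, 57.26 and 48.73 FPKM in sku5 (1.28, SE 0.17). CAO, which makes chlorophyll b, rose by 1.24 (SE 0.28) and 1.15 (SE 0.28), and CHLM, a methyltransferase of the pathway, by 0.71 (SE 0.21) and 1.01 (SE 0.21). None of the 3 overlapped between flown and ground BO libraries of a line. At VG, HEMA1 was at 26.07 to 30.19 FPKM in WS ground and 25.72 to 28.06 FPKM in WS flown libraries, which overlapped.

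Among 17 Calvin cycle genes, CP12-1 alone was called in either BO line, 5.88% of the list, near the share of all genes. This regulator of the chloroplast glyceraldehyde-3-phosphate dehydrogenase was at 81.13, 173.12 and 137.18 FPKM in WS ground and 301.33, 305.80 and 308.72 FPKM in WS flown libraries, without overlap (log2 change 1.29, SE 0.23), and it rose by 1.31 (SE 0.23) in sku5. At VG, CP12-1 was at 265.63 to 403.81 FPKM in WS ground and 211.71 to 264.40 FPKM in WS flown libraries. The WS BO ground libraries lay below all of these. Of the 23 other thylakoid genes, a list that includes the root-type ferredoxin and its reductases, 1 was higher and 7 lower in WS (4.35% and 30.4%). In sku5, 1 was higher and 8 lower (4.35% and 34.8%). The higher one was PSB27, an assembly factor of photosystem II (1.16, SE 0.29 in WS; 1.06, SE 0.29 in sku5). Lower in both lines were FNR2 and RFNR2, ferredoxin reductases of leaf and root type, FD3, a root ferredoxin, NPQ4, and ELIP1 and ELIP2, early light-induced proteins. FNR2 was at 8.73, 10.57 and 6.72 FPKM in WS ground and 1.21, 2.71 and 3.17 FPKM in WS flown libraries, without overlap (-1.56, SE 0.28). FD3, also picked after its values were seen, was at 353.91, 256.57 and 382.07 FPKM in WS ground and 179.48, 171.92 and 209.28 FPKM in WS flown libraries, also without overlap (-0.81, SE 0.17).

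Of 15 regulators, 1 was higher and 1 lower in each line (6.67% each), close to the shares of all genes. BBX21 was higher (1.01, SE 0.14 in WS; 1.04, SE 0.14 in sku5) and HY5 was lower (-1.17, SE 0.27 in WS; -1.70, SE 0.27 in sku5). BBX21 was at 75.68 to 94.82 FPKM in WS BO ground and 161.07 to 189.06 FPKM in WS BO flown libraries. At VG it was at 172.45 to 236.89 FPKM in WS ground and 147.86 to 186.35 FPKM in WS flown libraries. HY5 in WS flown libraries was at 16.11, 51.20 and 22.35 FPKM against 53.34, 64.33 and 66.27 FPKM on the ground, so the second flown library lay near the ground values without overlapping them. PHO1, picked the same way, was higher in both lines as well (0.93, SE 0.19; 1.04, SE 0.19), and its part in these results was not tested. In WS, PHO1 was at 107.04 to 117.28 FPKM in BO ground and 187.83 to 239.32 FPKM in BO flown libraries. The WS VG libraries held 191.04 to 225.39 FPKM on the ground and 153.67 to 184.50 FPKM after flight.

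**Figure D5:**
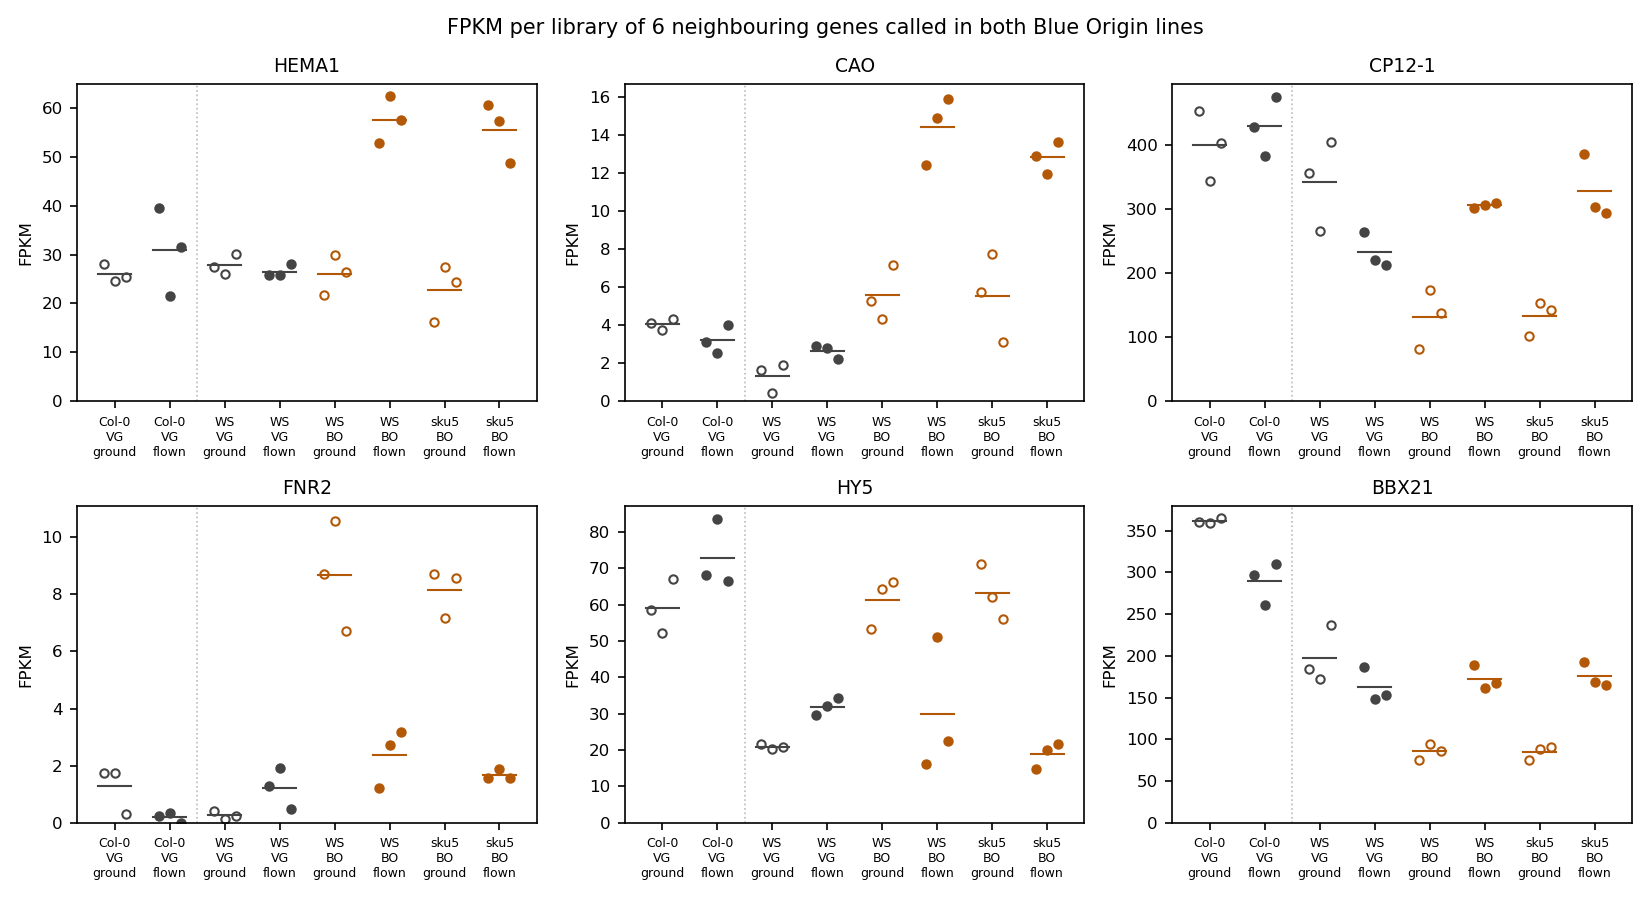
FPKM (vertical axis) in each library of 6 genes of chlorophyll synthesis, carbon fixation, electron transfer and light signalling that passed in both BO lines, by group (open circles ground, filled circles flown, lines means, n = 3 each; dark grey VG, brown-orange BO). HEMA1, CAO, CP12-1 and BBX21 are higher, and FNR2 and HY5 lower, in all 3 flown than in all 3 ground libraries of each BO line.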

How the data were processed

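Poly(A) RNA of whole roots was measured in 24 libraries. Per the submitters' processing notes, Trimmomatic 0.36, FastQC 0.11.4, MultiQC 1.1, STAR 2.7.3a, RSEM 1.2.31 and DESeq2 were used; build, annotation and the DESeq2 version are not given in the sources used. The authors deposited FPKM values per gene in 2 tables, normalised separately, a unit read from the values (column sums of 1021562 to 1290752). Per the file headers, the authors' deposited lists of changed genes hold a mean count, a p-value, a log2 fold change and its error; the mean count is a signal averaged over libraries, as deposited. Depth is unknown, so no counting intervals are given. Spike-ins were not analysed here.

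The design allowed for counts; since the tables hold FPKM, limma 3.58.1 (R 4.3.3) with a mean-variance trend was fitted to log2(FPKM + 1) for genes reaching 1 FPKM in 3 or more of the fitted libraries. Fold changes are on that scale, which understates changes of low genes. Tests were two-sided, adjusted over all genes by Benjamini-Hochberg, and called at 0.05. The 18 WS and sku5 libraries shared 1 fit of 6 group means (12 residual degrees of freedom), and the 6 Col-0 libraries had their own (4). The 10 comparisons were flight in 4 pairs, sku5 against WS on the ground and flown, BO against VG in WS on the ground and flown, and 2 differences of flight effects. The fit was tested on simulated data. Replicate numbers did not pair libraries (correlations of deviations from -0.227 to 0.143). Genes named were those called in any comparison, the highest and lowest of each class, those under 1 FPKM throughout, and, of 4 further lists of 80 genes, some of the up to 4 called genes with the smallest p per comparison, plus GLK1, GLK2, HY5, GNC and CGA1; exceptions are marked. The members, lists and printed ratios were chosen with earlier results of these data known. Upstream sequence, transcript words and symbols came from RefSeq TAIR10.1 by locus (32375 of 32844 and 32835 of 33469 identifiers matched). Words were searched in 250 bases on both strands. Python 3.11.15, pandas 2.3.3, numpy 2.4.6 and matplotlib 3.10.9 were used. Alternatives were other pseudocounts, filters and scalings, summed copies, a replicate block, fewer libraries, and leaving out each library.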

Additional observations from a re-analysis of the deposited data

Results flagged for a closer look

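For 4 genes the WS flight effect differed between the vehicles in a test of the difference itself. On the log2 scale, the effect at Blue Origin minus that at Virgin Galactic was -2.003 for LHB1B2, -1.33 for LHCB5, -1.23 for PSBY and 0.84 for PSBO1. These are 4 of the 46 genes, a share near the 6.83% of all genes called in this test. The LHCB5 call held in all 22 alternatives and that of LHB1B2 in 19 of 21, whereas those of PSBY and PSBO1 were lost in 14 of 22 each. LHB1B2, LHCB5 and PSBY had higher means after flight at Virgin Galactic and lower means after flight at Blue Origin, whereas PSBO1 was higher after flight at Blue Origin and near level at Virgin Galactic. The vehicles differ in year, site, age and pre-flight conditions too, and these cannot be told apart.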

How the results depend on the processing

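For the 76 called values of these genes that were recomputed, no alternative changed a sign; values that did not pass and those of the neighbouring genes were not recomputed. Of 1229 alternative values, 1121 kept their call and 108 lost it (60 of 1064 for the differences between campaigns, 48 of 165 for flight effects and their difference). The counts between campaigns stayed within 1.5 times. For WS at Blue Origin, the 2 called genes became 4 with a filter at 5 FPKM and 4 with a pseudocount of 5. They became 1 with a pseudocount of 0.1, with no filter, or with copies summed within LHCB1, within LHCB2 and within the clustered RBCS genes. The count was 10 when only the libraries compared were fitted. It was 6 without the 3 libraries that stood apart, an alternative chosen after seeing the data. Leaving out 1 library gave 0 to 2, with 0 without WS ground replicate 1 and 1 without WS ground replicate 3 or any flown WS library. The calls over all genes went from 2345 to between 879 and 3389. For sku5 at Blue Origin, 3 became 6 with a TMM factor, and 2 to 4 without 1 library (942 to 2391 over all genes, against 2072). For WS at Virgin Galactic, 0 became 1 (LHCB5) with no filter, with a pseudocount of 0.1, with quantile normalization and without WS flown replicate 1 (range 0 to 1), and 6 calls over all genes became 1 to 21. For the difference between vehicles, 4 became 2 with no filter, and 1 to 5 without 1 library, with 1 without WS VG ground replicate 1 and 2 without WS VG ground replicate 3, WS VG flown replicate 2 or any WS BO flown library (467 to 1878 over all genes, against 1375); the TMM split over all genes was 884 higher and 523 lower, against 731 and 644. The causes were not tested. With the replicate number as a block, which the design does not support as a pairing, the difference between vehicles gave 2 calls and the other counts stayed within 1.5 times. FPKM give no depth, so low genes have unknown counting error.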
